A study of Mus musculus with 12 samples.

Results

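The response of the adult mouse heart to pressure overload was measured in animals that had been exposed to diesel exhaust before birth. The comparison sets 3 hearts taken after transverse aortic constriction (TAC) against 3 hearts taken after a sham operation, which are 6 of the 12 samples of the study and were chosen by their labelled exposure and surgery. The dams of all 6 animals breathed diesel exhaust from E0.5 to E17.5 of the pregnancy, and the offspring then lived in filtered air. At 11 weeks of age their hearts were imaged by echocardiography, and at 12 weeks they were operated on. In TAC the aortic arch is tied down over a needle, here of 27 gauge, which is then withdrawn, so that the left ventricle pumps against a fixed narrowing. Hearts were frozen at 15 weeks and total RNA was sequenced after removal of ribosomal RNA. The other 6 samples had the same operations after prenatal filtered air. They enter the fit behind every SE and p-value, and their own response is given where the 2 exposures are compared. Neither strain nor litter, sex or run of the sequencer could be taken from the labels. Because the exposure was given to dams, hearts of a group may share a litter, and litter and group cannot be told apart. Each label carries its own sample number. The p-values compare these 3 and 3 samples, with a spread estimated from all 12 samples of the 4 groups.

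As background, a heart that works against raised pressure thickens its wall, switches part of its gene expression back to forms used before birth, and lays down matrix between its muscle cells. The natriuretic peptides are hormones released by stretched muscle, skeletal alpha-actin and beta myosin are contractile forms typical of the fetal rodent heart, and fibroblasts that are activated secrete collagens and matricellular proteins, which bind matrix and signals without building fibres. The adult heart burns mainly fatty acids, and their use commonly declines under sustained load.

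The total count per library was 8236531, 5534685 and 7328704 for sham replicates 1 to 3 and 13265816, 8320166 and 9101476 for TAC replicates 1 to 3. Sham replicate 2 stood apart from the other libraries. It had the lowest total, its mitochondrially encoded share was 18.3% against 25.2% to 31.5% in the other 5, and it lay at -58.9 on the second principal component, where the others lay between -7.43 and 34.1. On the first component, which held 34.7% of the variance, the sham hearts lay between -47.1 and -21.6 and the TAC hearts between 31.3 and 34.6. The alpha myosin gene Myh6, a marker of heart muscle, was at 17700 to 35700 CPM (counts scaled to library size with the TMM method). The lung surfactant gene Sftpc and the brown fat gene Ucp1 were at 0 in all 6. Other members of their marker lists were read. On the adipocyte list Fabp4, also an endothelial marker, was at 242 to 434 CPM and Cox8b at 189 to 296 CPM. On the lung list Ager reached 2.68 CPM, in sham replicate 1. The Y-linked gene Ddx3y was read in each of the 6 libraries at 26.7 to 64.5 CPM.

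Of 13626 genes tested by edgeR's quasi-likelihood test, 442 differed between TAC and sham at an adjusted p under 0.05, which is 3.24% of genes tested. They were 239 genes higher after TAC (1.75%) and 203 lower (1.49%), and 262 of them differed by more than 2-fold. The libraries of the 2 groups did not overlap for 437 of the 442, while 22.3% of all genes tested, 3034 in number, showed no such overlap. The median log2 fold change of all genes tested was 0.001, and 50.1% of them lay above 0. Leaving out the sham library that stands apart gave 366 genes, of which 303 were among the 442. The count was 223 and 264 without sham replicate 1 or 3, and 265, 209 and 188 without TAC replicate 1, 2 or 3. Of the 442 genes, 131 passed in each of the 12 fits that left out 1 library of the study. Below, log2 fold changes of TAC over sham are given ± SE, n = 3 libraries a group, and adjusted p-values are edgeR's over all genes tested. Each SE is the size of the log2 fold change divided by the square root of the F value of its test. It is therefore approximate, above all for genes near 0 counts. Gene groups are described by how many members passed and by the median of their tested members. These counts stand beside the 3.24% of all genes called, 1.75% higher and 1.49% lower. A group with few calls can lie near those shares. The lists were chosen with earlier results of these data known, so a share above that of all genes is no test of a group.

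**Figure D1:**
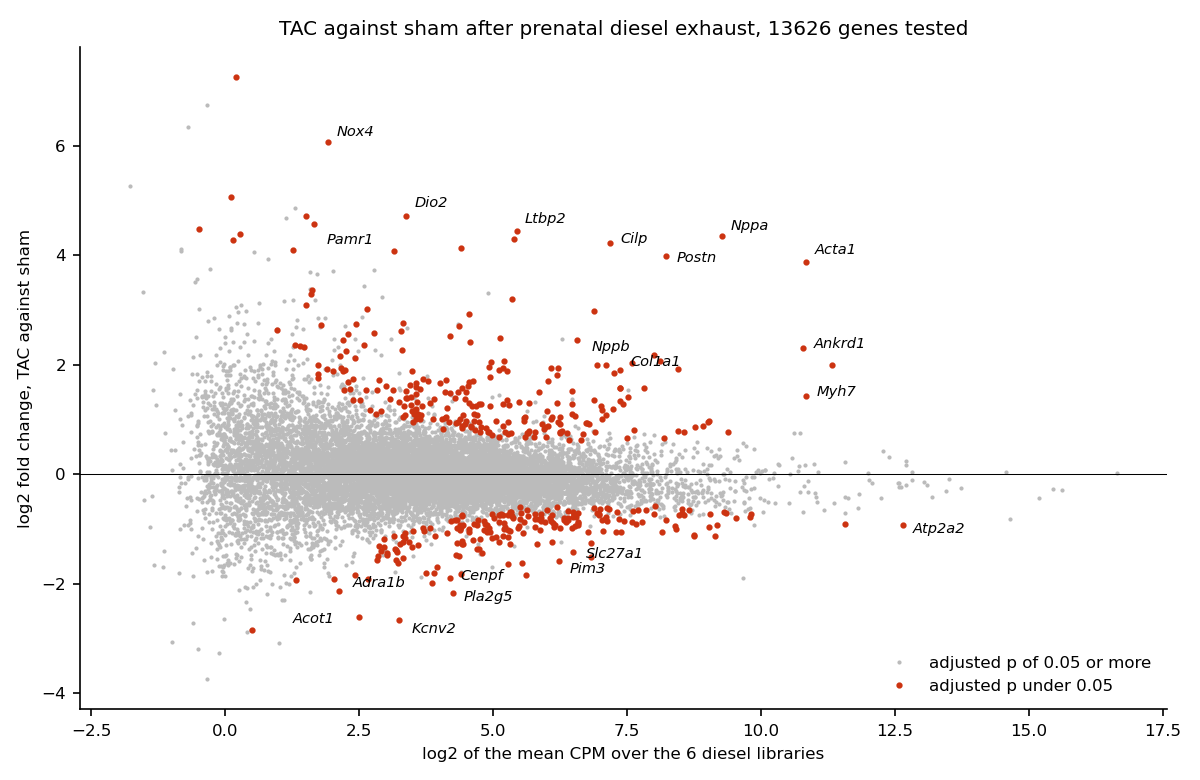
Log2 fold change of TAC over sham after prenatal diesel exhaust (vertical axis) against the log2 of the mean CPM of the 6 libraries (horizontal axis), 1 point a gene. Red points are the 442 genes with an adjusted p under 0.05, with 239 above and 203 below the line at 0. The tallest rises are in genes of low level, such as Nox4, while Nppa, Acta1 and Ankrd1 rose at a high level.

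The natriuretic peptide genes Nppa and Nppb both rose. Nppa, which encodes atrial natriuretic peptide, was at 46.9, 83.7 and 42.7 CPM in the sham hearts and at 724, 1100 and 1710 CPM in the TAC hearts. Its neighbour Nppb, for B-type natriuretic peptide, lies 13516 bases away on chromosome 4 and read 72.8, 130 and 75.9 CPM in sham and 268, 433 and 563 CPM in TAC. For both peptides each TAC heart lay above each sham heart, and TAC replicate 3 was the highest. Nppa rose by 4.35 ± 0.52 (adjusted p = 0.00239) and Nppb by 2.18 ± 0.27 (adjusted p = 0.00017). Corin, the membrane protease that cuts the atrial peptide precursor, fell, from 230, 307 and 261 CPM to 137, 148 and 143 CPM (-0.90 ± 0.18, adjusted p = 0.00504). These were the 3 of 8 tested genes of natriuretic peptides, processing and receptors that passed, and all 3 passed in each fit without 1 library. The median of the 8 was 0.00.

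Nppa is also made in the atria, so atrial genes were read beside it. The atrial myosin light chain Myl7 was at 0.255, 2.84 and 4.76 CPM in sham and at 11.5, 8.59 and 0.298 CPM in TAC. Sarcolipin, Sln, read 0.128, 1.34 and 0.577 CPM in sham and 8.2, 4.57 and 0.0994 CPM in TAC. TAC replicate 3 had the most Nppa and little of either atrial gene, and the atrial peptide gene Bmp10 was at 0 in all 6. Other markers of the list moved both ways. Dkk3 read 5.87, 5.52 and 3.03 CPM in sham and 16.2, 14.9 and 11.6 CPM in TAC. Kcnj3 read 46.2, 27.6 and 37.9 CPM in sham and 18.9, 13.7 and 13.1 CPM in TAC, and Stard10 was also lower in TAC. Of the 8 tested atrial markers Nppa alone passed, 5 lay above 0 and 3 below, and the median of the 8 was 1.15. A further marker passed without filtered-air sham replicate 1 or 3 or filtered-air TAC replicate 1 or 2. That marker list summed to 121 to 161 CPM in sham and 831 to 1750 CPM in TAC. Nppa made up most of the sum in TAC, and 42.7 to 83.7 CPM of it in sham. The part of atrial tissue in the other genes' differences was not tested.

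Among contractile genes, Acta1, the skeletal alpha-actin, was at 281, 234 and 189 CPM in sham and at 2770, 4010 and 3560 CPM in TAC. The lowest TAC heart was far above the highest sham heart, and the rise was 3.88 ± 0.53 (adjusted p = 0.00434). Myh7, the slow beta myosin heavy chain, went from 1190, 973 and 825 CPM to 2430, 3110 and 2460 CPM. Its rise of 1.43 ± 0.28 (adjusted p = 0.00798) was missed narrowly without sham replicate 3 (adjusted p = 0.0508). Myh6, the fast alpha myosin that fills the adult mouse ventricle, read 35700, 32900 and 29200 CPM in sham and 18800, 19000 and 17700 CPM in TAC, with no overlap. It did not pass the threshold (-0.81 ± 0.23, adjusted p = 0.0587). Mybpc2, a myosin-binding protein of fast skeletal muscle, rose from 29, 19.2 and 15.3 CPM to 50, 59.1 and 45.6 CPM (1.28 ± 0.22, adjusted p = 0.00159). The cardiac troponin I gene Tnni3 and the myosin light chain kinase gene Mylk3 fell by 0.90 ± 0.24 and by 0.66 ± 0.18, although Tnni3 missed the threshold on leaving out any 1 of 6 libraries (adjusted p = 0.206 at most, for TAC replicate 3) and Mylk3 on leaving out any 1 of 8 (0.144 at most, for sham replicate 1). In all, 3 of 23 tested genes of the thick and thin filament rose and 2 fell, with a median of -0.19. The number that passed was 3 without filtered-air sham replicate 3, diesel sham replicate 1 or 3, or diesel TAC replicate 2 or 3, and 8 without filtered-air TAC replicate 2.

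At the Z-disc, which anchors the thin filaments and senses strain, 5 of 24 tested genes rose and 1 fell, with a median of 0.38. Ankrd1, a titin-binding protein that carries strain signals to the nucleus, was at 826, 471 and 500 CPM in sham and at 2980, 2740 and 3110 CPM in TAC. Xirp2, an actin-binding repeat protein of the discs, read 1160, 778 and 1130 CPM in sham and 2800, 4660 and 4810 CPM in TAC. Both rose with no overlap, Ankrd1 by 2.30 ± 0.26 and Xirp2 by 2.0 ± 0.23 (adjusted p = 2.18e-05 for each). Synpo2l, a Z-disc protein related to synaptopodin, rose by 1.28 ± 0.23 (adjusted p = 0.00288), less in TAC replicate 1, at 140 CPM, than in TAC replicates 2 and 3, at 285 and 301 CPM. The ankyrin repeat gene Ankrd23 rose by 0.87 ± 0.20 and myotilin, Myot, by 1.05 ± 0.25, and telethonin, Tcap, fell by 0.92 ± 0.19. Ankrd23 and Myot each missed the threshold on leaving out any 1 of 4 libraries (highest adjusted p = 0.104 and 0.117), and Tcap without TAC replicate 3 (0.079).

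The sequences just upstream of 3 strongly induced muscle genes are shown because these genes rose together. Each is the 250 bases before the annotated start in RefSeq on GRCm38.p6, the build also called mm10, read 5′ to 3′ on the gene's strand. They lie at chr4:148000472-148000721 on the plus strand for Nppa, chr8:123894776-123895025 on the minus strand for Acta1 and chr19:36119845-36120094 on the minus strand for Ankrd1. Capitals mark matches, on either strand, to the M-CAT element CATTCC that TEAD factors bind, the GATA site AGATAA, and the CArG box of serum response factor.
Nppa: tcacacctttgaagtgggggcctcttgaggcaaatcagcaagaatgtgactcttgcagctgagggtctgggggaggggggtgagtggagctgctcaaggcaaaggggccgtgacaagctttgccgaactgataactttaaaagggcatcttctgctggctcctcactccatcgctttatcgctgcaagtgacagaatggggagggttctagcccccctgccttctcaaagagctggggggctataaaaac
Acta1: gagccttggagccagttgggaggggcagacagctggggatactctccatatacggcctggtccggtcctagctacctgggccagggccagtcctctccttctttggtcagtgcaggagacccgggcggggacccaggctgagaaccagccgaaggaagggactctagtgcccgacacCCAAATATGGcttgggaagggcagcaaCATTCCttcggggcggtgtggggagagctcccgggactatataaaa
Ankrd1: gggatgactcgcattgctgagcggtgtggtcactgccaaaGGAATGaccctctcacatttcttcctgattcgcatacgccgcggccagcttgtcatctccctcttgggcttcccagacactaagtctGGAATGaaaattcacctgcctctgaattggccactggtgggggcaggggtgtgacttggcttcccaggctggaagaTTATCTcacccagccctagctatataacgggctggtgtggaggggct
Acta1 held a CArG box at positions 178 to 187 and an M-CAT element at 205 to 210, counted from the 5′ end of the window. Ankrd1 held M-CAT elements at 41 to 46 and at 128 to 133 and a GATA site at 204 to 209. Nppa had no match to these exact letters in its window, and variant forms of the sites were not searched. Across 32851 such windows, 12.6% held an M-CAT element, 9.99% the GATA site and 1.47% a CArG box. Among genes with a window, an M-CAT element was found for 31 of 172 higher genes (18%), for 26 of 155 lower genes (16.8%) and for 13.1% of the 10240 tested. The CArG box was found for 1 higher and 2 lower genes. The GATA site stood in 6.4% of higher and 11% of lower genes, against 7.2% of those tested. For the AP-1 site TGANTCA the shares were 8.72% of higher and 4.52% of lower genes, against 5.48% of those tested. A match of this kind is a description of letters and not a bound site.

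**Figure D2:**
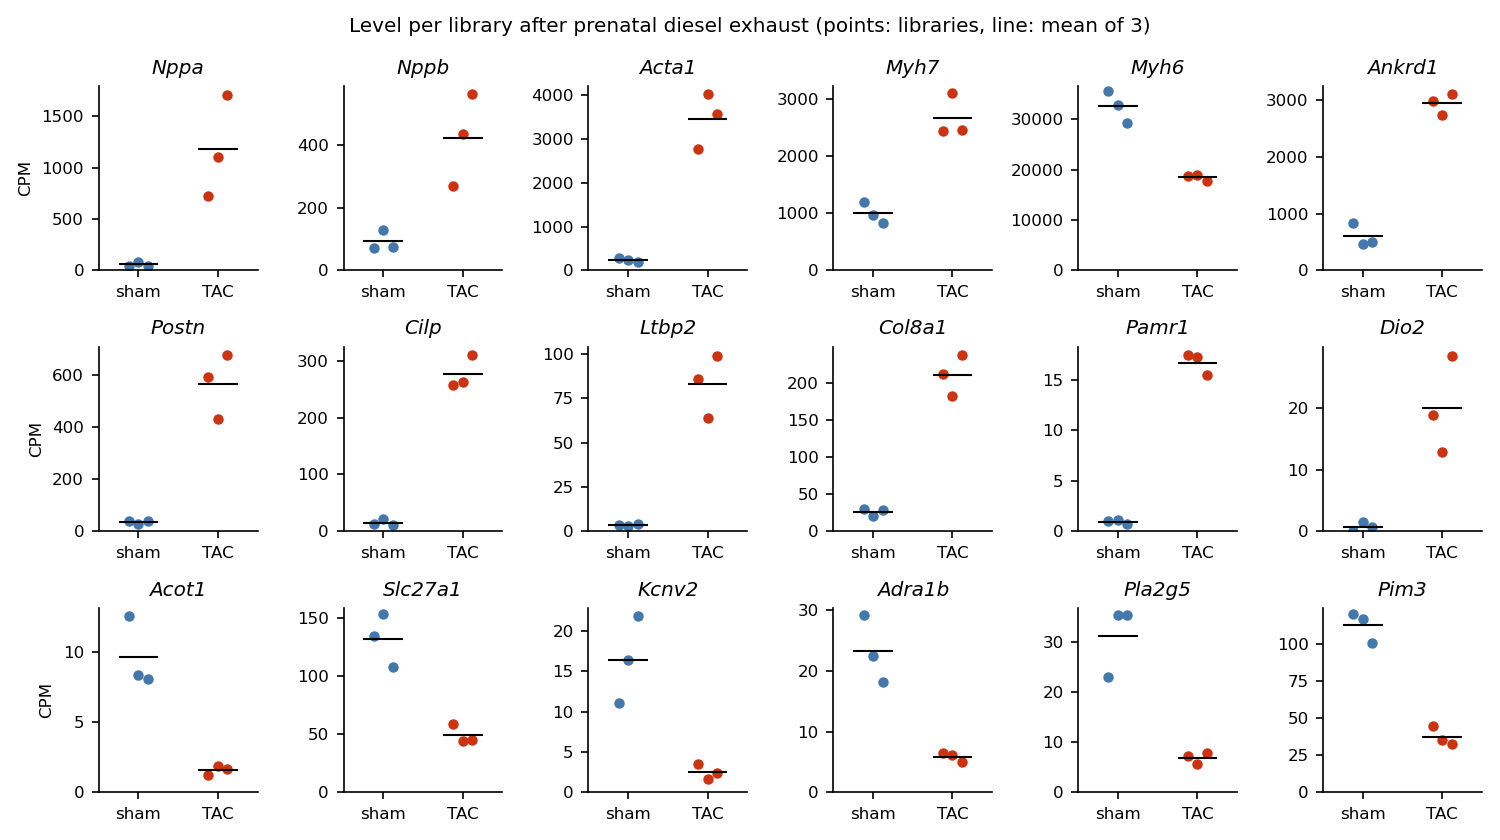
CPM of 18 genes in each of the 6 libraries after prenatal diesel exhaust (vertical axes, linear from 0), sham in blue and TAC in red, with a line at the mean of 3. The groups do not overlap in any panel. The 12 genes of the upper rows rose apart from Myh6, whose fall did not pass the threshold, and the 6 genes of the lowest row fell.

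In calcium handling 2 of 21 tested genes fell and 0 rose, with 9 above 0, 12 below and a median of -0.13. Hrc, a histidine-rich calcium binding protein of the sarcoplasmic reticulum, read 728, 625 and 713 CPM in sham and 360, 378 and 324 CPM in TAC (-0.96 ± 0.18, adjusted p = 0.00357). The calcium pump gene Atp2a2 was at 10000, 6930 and 8180 CPM in sham and at 4690, 4310 and 4280 CPM in TAC. Its fall of 0.92 ± 0.23 (adjusted p = 0.0297) missed the threshold on leaving out any 1 of 5 libraries, reaching 0.144 at most, for sham replicate 1. Phospholamban, Pln, the brake of that pump, overlapped between the groups at 2270 to 4570 CPM in sham and 2360 to 3140 CPM in TAC (-0.44 ± 0.22, adjusted p = 0.337). Hrc and Atp2a2 were the 2 falls, and the count was 1 without diesel sham replicate 1 or 3 or without TAC replicate 1, 2 or 3.

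Of 21 tested potassium channel genes 6 fell and 0 rose, with a median of -0.52. Kcnv2, a silent subunit that modifies other potassium channels, read 11.1, 16.4 and 21.8 CPM in sham and 3.48, 1.67 and 2.39 CPM in TAC (-2.67 ± 0.38, adjusted p = 0.000245). Kcnd2, which carries the transient outward current of early repolarisation, read 23.4, 35.4 and 32.2 CPM in sham and 13.4, 10.7 and 13.1 CPM in TAC (-1.28 ± 0.24, adjusted p = 0.00411). In both genes every TAC heart was below every sham heart. The other falls were Kcnh2 (-1.07 ± 0.24), a channel of late repolarisation, the ATP-sensitive channel subunit Abcc9 (-0.74 ± 0.18), the background channel Kcnk3 (-0.85 ± 0.21) and Kcnj5 (-0.80 ± 0.21), a subunit of the acetylcholine-gated channel. They missed the threshold on leaving out any 1 of 4, 5, 3 and 4 libraries, and the highest adjusted p-values were 0.106, 0.143, 0.142 and 0.171. Leaving out sham replicate 1 or TAC replicate 3 left 3 calls, and leaving out TAC replicate 2 left 2. Among 20 tested genes of sodium and pacemaker channels, connexins and discs, 3 fell, with a median of -0.33. They were the sodium channel subunit Scn4b, the desmosomal cadherin Dsg2 (-0.97 ± 0.21) and the plakin Ppl (-1.32 ± 0.32), of which Dsg2 and Ppl missed the threshold on leaving out any 1 of 5 and 3 libraries (0.0635 and 0.144 at most). Scn4b read 42, 47.6 and 47.3 CPM in sham and 25, 21.3 and 15.8 CPM in TAC (-1.14 ± 0.23, adjusted p = 0.00769, and 0.0668 without TAC replicate 3). That list had 1 call with sham replicate 1 or TAC replicate 2 left out and 0 without TAC replicate 3.

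Receptors and enzymes of circulating signals changed in both directions. Adra1b, an alpha-1 adrenergic receptor of heart muscle, read 29.1, 22.4 and 18.2 CPM in sham and 6.53, 6.14 and 4.97 CPM in TAC. The lowest sham heart had more than 2 times the level of the highest TAC heart, and the fall was 1.98 ± 0.28 (adjusted p = 0.00021). Adra1a, the other alpha-1 receptor of this tissue, went from 37.3, 30.4 and 36.1 CPM to 15.9, 18.3 and 11 CPM (-1.20 ± 0.25, adjusted p = 0.00884, and 0.0772 without TAC replicate 3). Ace, the angiotensin-converting enzyme, moved the other way, from 53.1, 78.6 and 68.4 CPM to 131, 200 and 178 CPM (1.35 ± 0.21, adjusted p = 0.000469). Slc22a3, a transporter that clears catecholamines, fell by 1.91 ± 0.39 (adjusted p = 0.00747, and 0.0537 without TAC replicate 2). Apelin, Apln, and the amine oxidase gene Maob fell and endothelin 3, Edn3, rose, and these 3 missed the threshold on leaving out any 1 of 4, 8 and 8 libraries (0.182, 0.194 and 0.155 at most). In the group of adrenergic, angiotensin, endothelin and apelin genes 2 of 22 tested rose and 5 fell, with a median of -0.13. The count was 4 without TAC replicate 2 and 3 without TAC replicate 3.

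Dio2, the deiodinase that makes active thyroid hormone inside cells, was at 0.128, 1.5 and 0.721 CPM in sham and at 18.8, 12.8 and 28.4 CPM in TAC. It rose by 4.73 ± 0.77 (adjusted p = 0.00623) and passed in each edgeR fit without 1 library. Slc16a10, an amino acid and thyroid hormone transporter, fell by 0.86 ± 0.22, and missed the threshold on leaving out any 1 of 5 libraries (adjusted p = 0.137 at most, for sham replicate 2). These were the 2 of 9 tested thyroid genes that passed, 1 in each direction, with a median of -0.53. The count was 1 without sham replicate 1 or TAC replicate 1, 2 or 3. Nox4, an NADPH oxidase that makes hydrogen peroxide, had 1, 1 and 0 counts in the sham libraries and 112, 61 and 75 counts in the TAC libraries. Pooled and scaled to library size the ratio was 78.4, with an exact 95% interval of 21.5 to 651 that covers counting error only. It was the 1 gene of 9 tested NADPH oxidase genes that passed (adjusted p = 0.00159), it passed in each edgeR fit without 1 library, and by voom of limma its adjusted p was 0.111. Hopx, a small homeodomain protein of heart muscle, was the 1 of 19 cardiac transcription factors that passed, falling from 172, 159 and 152 CPM to 75.3, 74.6 and 53 CPM (-1.25 ± 0.18, adjusted p = 0.000278). A second gene of that list passed without filtered-air sham replicate 1. Gata4 overlapped between the groups, at 70.5 to 97.6 CPM in sham and 62.7 to 85.3 CPM in TAC (-0.14 ± 0.22, adjusted p = 0.837).

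Of 26 tested matricellular proteins and thrombospondins 17 rose and 0 fell, with a median of 1.91. Postn, periostin, was at 40.3, 27.2 and 39.1 CPM in sham and at 593, 431 and 675 CPM in TAC. Cilp, a protein first known from cartilage, read 12.4, 21.1 and 11.4 CPM in sham and 258, 263 and 309 CPM in TAC. Thbs4, thrombospondin 4, read 2.55, 4.51 and 5.05 CPM in sham and 78.4, 62.9 and 96.7 CPM in TAC. The lowest TAC heart exceeded the highest sham heart by more than 10 times in all 3 genes. The rises were 3.99 ± 0.34 for Postn (adjusted p = 2.18e-05), 4.22 ± 0.33 for Cilp (9.76e-06) and 4.31 ± 0.54 for Thbs4 (0.00241). Tenascin C, Tnc, rose from 1.15, 0.836 and 2.16 CPM to 7.18, 6.25 and 15 CPM (2.75 ± 0.48, adjusted p = 0.00207), and Ccn5 rose by 2.72 ± 0.34 (9.81e-05). Ccn2, also known as connective tissue growth factor, read 48.6, 59.8 and 39.1 CPM in sham and 170, 183 and 232 CPM in TAC. Its rise of 1.99 ± 0.40 (adjusted p = 0.0225) missed the threshold on leaving out any 1 of 6 libraries, reaching 0.11 at most, for sham replicate 1. Of the 17, 9 passed in each fit without 1 library, and the count was 10 without sham replicate 1 and 11 without sham replicate 2 or TAC replicate 3.

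Of the fibrillar collagen genes 5 of 7 tested rose, with a median of 1.58, and of the other collagens 11 of 23 rose and 1 fell, with a median of 1.11. Col8a1, a short-chain collagen of network type, had the smallest p of any named gene, going from 30.6, 20.4 and 29 CPM to 212, 183 and 238 CPM (2.98 ± 0.24, adjusted p = 8.75e-07). Col1a1, a chain of the main fibrillar collagen, read 54.9, 103 and 51.7 CPM in sham and 261, 223 and 295 CPM in TAC. Its partner chain Col1a2 read 70.3, 183 and 85.6 CPM in sham and 317, 306 and 389 CPM in TAC. In both chains sham replicate 2 was the highest sham library and still lay below all TAC libraries. Col1a1 rose by 1.90 ± 0.26 (adjusted p = 0.000413) and Col1a2 by 1.58 ± 0.30 (0.00981). Col3a1, the collagen of thin fibres, rose by 1.93 ± 0.44 (0.0473), from 74.7, 214 and 149 CPM to 378, 470 and 822 CPM, but missed the threshold on leaving out any 1 of 10 libraries (0.128 at most, for sham replicate 3). The measured fibrillar collagen genes summed to 276, 660 and 374 CPM in sham and 1190, 1240 and 1840 CPM in TAC. The count of fibrillar collagens was 2 without sham replicate 1 or 3, 3 without TAC replicate 3 and 5 without sham replicate 2. The 3 microfibrillar chains Col6a1, Col6a2 and Col6a3 rose by 1.31 ± 0.20, 1.16 ± 0.18 and 1.07 ± 0.19, while Col6a6 fell by 1.19 ± 0.30 and missed the threshold on leaving out any 1 of 5 libraries (0.12 at most, for TAC replicate 1). Col12a1 rose by 4.13 ± 0.78 from 1.02, 4.35 and 1.73 CPM to 45.8, 31.8 and 42.7 CPM, and missed the threshold on leaving out any 1 of 5 libraries (0.104 at most, for sham replicate 1).

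Collagen has to be trimmed and crosslinked outside the cell, and 7 of 25 tested genes of that work rose and 0 fell, with a median of 0.45. Adamts2, which removes the amino-terminal propeptide, went from 12.5, 14.2 and 15.3 CPM to 44.3, 44.7 and 54.3 CPM (1.77 ± 0.21, adjusted p = 2.94e-05). Loxl2, a lysyl oxidase that crosslinks collagen, went from 12.5, 6.69 and 17.7 CPM to 48.7, 41.8 and 55.2 CPM (1.97 ± 0.28, adjusted p = 0.000256). Pcolce2, an enhancer of carboxy-terminal trimming, rose by 1.25 ± 0.24 (0.00395). These 3 passed in each fit without 1 library. The founding lysyl oxidase Lox rose by 2.76 ± 0.60 from 0.638, 4.51 and 2.74 CPM to 17.6, 11.4 and 23.2 CPM (0.0226), and Pcolce, Loxl1 and Loxl3 rose by 1.03 ± 0.25, 1.27 ± 0.30 and 1.61 ± 0.44. Lox, Pcolce, Loxl1 and Loxl3 missed the threshold on leaving out any 1 of 3, 5, 4 and 9 libraries, reaching 0.0968, 0.13, 0.12 and 0.177 at most. Leaving out sham replicate 1 or TAC replicate 2 gave 4 calls, and leaving out sham replicate 3 or TAC replicate 3 gave 3.

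Of 14 tested small leucine-rich proteoglycan and hyaluronan genes 8 rose and 0 fell, with a median of 1.00, and 5 rose without sham replicate 3. Biglycan, Bgn, which binds collagen and growth factors, read 46.7, 67.2 and 52.4 CPM in sham and 188, 225 and 248 CPM in TAC (1.99 ± 0.21, adjusted p = 1.35e-05). Versican, Vcan, a large hyaluronan-binding proteoglycan, read 32.9, 24.4 and 39.5 CPM in sham and 80.5, 95.5 and 165 CPM in TAC (1.81 ± 0.28, 0.00198). Of 27 tested genes of elastic fibres, basement membrane and fibronectin 8 rose and 1 fell, with a median of 0.55. Fibrillin 1, Fbn1, the core of microfibrils, went from 117, 80.9 and 123 CPM to 398, 377 and 576 CPM (2.07 ± 0.24, 2.94e-05). Fibronectin, Fn1, went from 68, 70.5 and 59.2 CPM to 265, 180 and 272 CPM (1.86 ± 0.21, 2.18e-05), and Mfap5, a microfibril protein, rose by 3.21 ± 0.40 (0.000609). For these genes the lowest TAC heart was above the highest sham heart. Emilin2 fell by 1.14 ± 0.29, from 50.3, 68 and 42.1 CPM to 28.7, 20.3 and 23.6 CPM, and missed the threshold on leaving out any 1 of 6 libraries (0.156 at most, for TAC replicate 3).

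**Figure D3:**
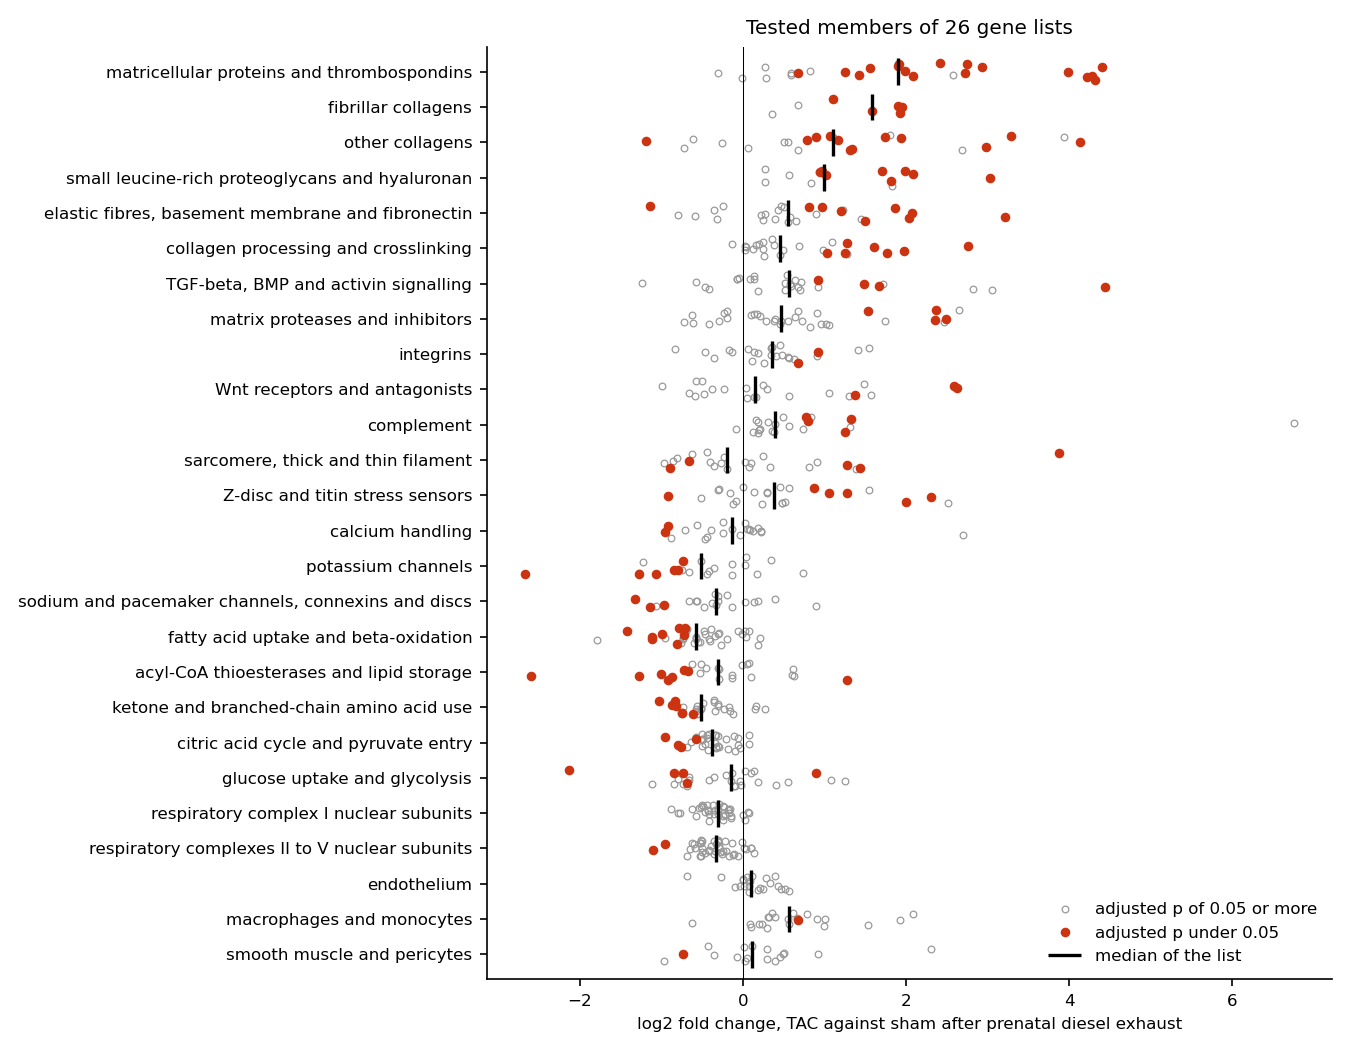
Log2 fold change of TAC over sham after prenatal diesel exhaust (horizontal axis) of the tested members of 26 gene lists (vertical axis), with members past the threshold filled and the list median as a bar. Medians run from -0.57 for fatty acid uptake and beta-oxidation to 1.91 for matricellular proteins, beside 0.001 for all genes tested, and endothelial markers have a median of 0.10 with no filled point.

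Growth factors that act on matrix cells changed in part. Of 28 tested genes of TGF-beta, BMP and activin signalling 4 rose and 0 fell, with a median of 0.56. Ltbp2, a latent TGF-beta binding protein family member of microfibrils, was at 3.83, 3.18 and 4.33 CPM in sham and at 85.6, 64 and 99.1 CPM in TAC (4.44 ± 0.43, adjusted p = 9.81e-05). The ligand Tgfb2 went from 6, 8.86 and 8.22 CPM to 15.9, 22.8 and 34.8 CPM (1.67 ± 0.30, 0.0025), and Tgfb3 from 5.49, 13.5 and 10.1 CPM to 25.8, 27.4 and 27.9 CPM (1.49 ± 0.29, 0.00455). All 3 were higher in every TAC heart than in any sham heart. Gdf15, a stress-induced cytokine of the same family, was at 0, 1.67 and 0.289 CPM in sham and 4.35, 4.57 and 4.38 CPM in TAC and did not pass (2.82 ± 0.85, 0.0775).

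Of 22 tested Wnt receptors and antagonists 3 rose and 0 fell, with a median of 0.15, and all 3 were secreted antagonists. Frzb went from 2.17, 2.84 and 3.17 CPM to 16.5, 13.8 and 19.8 CPM (2.62 ± 0.38, adjusted p = 0.000245). Sfrp2 went from 1.4, 2.34 and 2.16 CPM to 16.9, 6.36 and 12 CPM (2.59 ± 0.49, 0.00474). Both passed in each edgeR fit without 1 library, and by voom the adjusted p of Sfrp2 was 0.0593. Sfrp1 (1.37 ± 0.34) missed the threshold on leaving out any 1 of 6 libraries (0.22 at most, for TAC replicate 3). Of 16 tested genes of IGF and insulin signalling 3 rose and 1 fell, with a median of -0.06. The growth factor Igf1 went from 8.43, 12.2 and 13.9 CPM to 34.6, 35.6 and 42.5 CPM (1.71 ± 0.29, 0.00159) and its binding protein Igfbp7 from 89, 90.8 and 70.4 CPM to 300, 208 and 237 CPM (1.57 ± 0.23, 0.000422). The kinase Akt2 fell by 0.72 ± 0.16, and missed the threshold on leaving out any 1 of 3 libraries (0.0638 at most, for TAC replicate 2), and Igfbp5 rose by 0.74 ± 0.20 and missed it on leaving out any 1 of 7 (0.196 at most, for TAC replicate 1). The count of the IGF group was 2 without sham replicate 1 or TAC replicate 2.

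Matrix proteases, integrins and lipid signals had fewer calls. Of 33 tested proteases and inhibitors 4 rose and 0 fell, with a median of 0.47, and 7 passed without filtered-air sham replicate 1. The gelatinase Mmp2 went from 49.8, 47.5 and 39.5 CPM to 135, 122 and 139 CPM (1.53 ± 0.17, adjusted p = 2.18e-05), and its inhibitor family member Timp1 from 2.68, 2.17 and 1.01 CPM to 9.07, 6.02 and 15.4 CPM (2.37 ± 0.45, 0.00454). Adamtsl2, a microfibril-binding protein, went from 7.02, 17.7 and 7.07 CPM to 40.1, 73.5 and 63.9 CPM (2.49 ± 0.35, 0.000978). Of 24 tested integrins Itga9 and Itgav rose, by 0.92 ± 0.20 and 0.68 ± 0.18, with a list median of 0.35. They missed the threshold on leaving out any 1 of 3 and 7 libraries (0.0794 and 0.215 at most), and the number was 1 without filtered-air sham or TAC replicate 3 or diesel sham replicate 1 or 2, and 0 without diesel sham replicate 3 or TAC replicate 2 or 3. The secreted phospholipase gene Pla2g5 fell, from 23.1, 35.3 and 35.3 CPM in sham to 7.18, 5.69 and 7.96 CPM in TAC (-2.16 ± 0.27, 5.95e-05). The lysophosphatidic acid receptor gene Lpar1 went from 7.91, 8.52 and 8.22 CPM to 20.9, 20.5 and 22.8 CPM (1.38 ± 0.26, 0.00342). In that lipid signalling group 3 of 21 tested rose and 1 fell, with a median of 0.04, and 2 passed after leaving out any 1 of sham replicates 1 to 3 or TAC replicates 1 and 2.

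Fibroblast markers were read beside the matrix genes. Of 18 tested fibroblast markers 8 rose and 0 fell, with a median of 0.60, and the list summed to 2070 to 2660 CPM in sham and 3750 to 4120 CPM in TAC. Dropping sham replicate 1 or 3 or TAC replicate 1 gave 5 calls, and dropping sham replicate 2 gave 8. Of 15 markers of activated fibroblasts 12 rose and 0 fell, with a median of 2.75 and a summed level of 244 to 255 CPM in sham and 1330 to 1890 CPM in TAC. Several of these markers are themselves matrix genes described above, so the lists are not independent. The smooth muscle actin gene Acta2, often used to mark myofibroblasts, pointed the other way at 56.2, 65.5 and 75.7 CPM in sham and 39.6, 21.2 and 39.4 CPM in TAC, and did not pass (-0.97 ± 0.27, adjusted p = 0.0518). In a whole piece of heart, more cells of a type and more RNA per cell cannot be told apart.

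Other cell types showed smaller differences. Of 22 tested endothelial markers 0 passed, with a median of 0.10 and sums of 2560 to 2810 CPM in sham and 2560 to 2930 CPM in TAC. Of 17 smooth muscle and pericyte markers Abcc9, also counted above as a channel subunit, fell and 0 rose, with a median of 0.11, and the count was 0 without diesel sham replicate 1 or 3 or any 1 TAC library and 2 without filtered-air TAC replicate 2 or 3. Of 22 tested macrophage and monocyte markers 21 lay above 0, with a median of 0.56, but the mannose receptor gene Mrc1 alone passed, from 46.3, 39.3 and 39.4 CPM to 70.9, 59.4 and 70.2 CPM (0.68 ± 0.18, adjusted p = 0.0442). Mrc1 missed the threshold on leaving out any 1 of 8 libraries (0.163 at most, for TAC replicate 3). The macrophage list summed to 272, 513 and 296 CPM in sham and 534, 489 and 522 CPM in TAC, so that sham replicate 2 reached the range of the TAC hearts, and without that library the median was 0.88 and 2 markers passed. The count was 2 without filtered-air TAC replicate 2, and 0 without filtered-air sham replicate 2 or 3, diesel sham replicate 1 or TAC replicate 1 or 3. Of 16 ventricular cardiomyocyte markers 1 rose and 2 fell, 13 lay below 0 and the median was -0.34, and 5 passed without filtered-air TAC replicate 1 or 2. The list summed to 71600 to 84600 CPM in sham and 52300 to 58100 CPM in TAC. Myh6, which did not pass, made up 29200 to 35700 CPM of the sum in sham and 17700 to 19000 CPM in TAC. The share of the ventricular fall that comes with more matrix RNA in the same total was not tested. Too few markers of lymphocytes, neutrophils, mast cells or lung were counted for a description, with 2, 2, 4 and 1 tested.

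Of 21 tested complement genes 4 rose and 0 fell, with a median of 0.39. Among them were Serping1, which restrains the first step of the cascade, C4b and C1s1, with rises of 0.80 ± 0.19, 1.33 ± 0.32 and 0.77 ± 0.21. These missed the threshold on leaving out any 1 of 4, 7 and 8 libraries (0.106, 0.153 and 0.192 at most). The complement group had 1 call when sham replicate 1 or 3 or TAC replicate 1 or 3 was dropped. It had 2 calls when filtered-air sham replicate 2 or 3 or diesel TAC replicate 2 was dropped. Of 29 tested cytokines and chemokines 2 rose, with a median of 0.55. The chemokine Ccl8 had 1, 0 and 0 counts in sham and 23, 14 and 9 counts in TAC, a pooled ratio of 29.1 with an exact 95% counting interval of 4.97 to 1170. The call of Ccl8 (0.0484) was lost on leaving out any 1 of 10 libraries, reaching 0.174 at most. The lipopolysaccharide receptor gene Tlr4 (0.85 ± 0.22) lost its call on leaving out any 1 of 4, with 0.148 at most, and 0 of the group passed without sham replicate 1 or TAC replicate 3. The number was 1 without filtered-air sham replicate 2 or 3, filtered-air TAC replicate 3, diesel sham replicate 3 or diesel TAC replicate 2. Of 31 tested cell cycle genes 2 rose and 1 fell, with a median of 0.91. Top2a, a topoisomerase of dividing cells, went from 1.79, 2.01 and 2.16 CPM to 9.36, 9.04 and 7.76 CPM (2.13 ± 0.39, 0.00342), and Mki67 from 8.17, 8.86 and 7.36 CPM to 20.4, 18.3 and 21.8 CPM (1.31 ± 0.27, 0.00861). Cenpf, which serves chromosome segregation and is also made in muscle, fell from 26.2, 26.4 and 33.8 CPM to 11.5, 5.24 and 6.17 CPM (-1.90 ± 0.30, 0.000553). These 3 passed in each fit without 1 library.

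Of 39 tested genes of fatty acid uptake and beta-oxidation 8 fell and 0 rose, and 34 of the 39 lay below 0, with a median of -0.57. Slc27a1, which brings fatty acids into the cell, read 134, 153 and 108 CPM in sham and 58.7, 44.3 and 44.8 CPM in TAC (-1.42 ± 0.20, adjusted p = 0.000245). Ech1, which handles unsaturated chains, read 813, 740 and 777 CPM in sham and 374, 386 and 309 CPM in TAC (-1.12 ± 0.17, 0.000427). Acaa2, the last enzyme of the mitochondrial cycle, read 745, 467 and 560 CPM in sham and 340, 275 and 203 CPM in TAC (-1.12 ± 0.21, 0.00393). Every TAC heart was below every sham heart in these 3, which passed in each fit without 1 library. The other 5 were Etfb, Hadha, Acadvl, Decr1 and Eci1, with falls of 0.71 to 0.99, and each missed the threshold without TAC replicate 3, at adjusted p = 0.0714, 0.0824, 0.142, 0.147 and 0.192. Etfb was also lost without TAC replicate 2 (0.0507), and Acadvl, Decr1 and Eci1 on leaving out any 1 of 3, 6 and 6 libraries in all. The count was 4 without TAC replicate 2, 3 without TAC replicate 3 and 9 without sham replicate 2. The uptake receptor gene Cd36 overlapped between the groups (-0.27 ± 0.18, 0.514), and so did the muscle carnitine palmitoyltransferase gene Cpt1b, at 14.9 to 31.3 CPM in sham and 16.1 to 26.2 CPM in TAC (-0.19 ± 0.28, 0.817).

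Acyl-CoA thioesterases release fatty acids from their activated form. Acot1, the cytosolic enzyme, was at 12.6, 8.36 and 8.08 CPM in sham and at 1.23, 1.9 and 1.69 CPM in TAC. Acot2, its mitochondrial relative, was at 64.9, 84.1 and 90.6 CPM in sham and at 28.3, 35.7 and 34.9 CPM in TAC. The groups were apart for both, with falls of 2.60 ± 0.40 for Acot1 and 1.28 ± 0.19 for Acot2 (adjusted p = 0.000423 for each). The genes are near-identical neighbours on chromosome 12, 15624 bases apart, and the labels do not say how reads that match both were counted, so their separate values are uncertain. Their upstream windows, at chr12:84009252-84009501 and chr12:83987611-83987860 on the plus strand, are printed because both genes fell.
Acot1: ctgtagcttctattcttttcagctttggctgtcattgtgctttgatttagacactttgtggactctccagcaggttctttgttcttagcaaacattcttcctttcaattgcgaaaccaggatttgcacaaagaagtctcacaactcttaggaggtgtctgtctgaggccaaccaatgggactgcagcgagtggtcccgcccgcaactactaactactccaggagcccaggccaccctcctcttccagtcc
Acot2: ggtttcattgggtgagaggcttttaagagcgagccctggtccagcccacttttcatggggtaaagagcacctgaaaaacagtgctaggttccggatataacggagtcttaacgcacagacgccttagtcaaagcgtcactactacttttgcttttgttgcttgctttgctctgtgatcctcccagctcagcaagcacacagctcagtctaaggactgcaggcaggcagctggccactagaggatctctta
Neither held a match to the motifs above or to the ERR site AAGGTCA, which 4.08% of all windows hold. Among genes with a window, the ERR site was found for 5.16% of lower and 2.33% of higher genes, against 3.44% of those tested. Among 24 tested genes of thioesterases and lipid storage 7 fell and 1 rose, with a median of -0.30. The falls included the lipid droplet genes Plin5 and Plin4, the lipases Pnpla2 and Lipe and the triglyceride enzyme Dgat2, by 0.67 to 1.01, and these missed the threshold on leaving out any 1 of 4, 7, 7, 5 and 4 libraries (0.101, 0.225, 0.151, 0.224 and 0.159 at most). Scd1, the desaturase of new fat synthesis, rose from 15.8, 15.4 and 16.7 CPM to 32.6, 57.1 and 26.8 CPM (1.28 ± 0.25, 0.00507, and 0.0617 without TAC replicate 2). The count was 4 without sham replicate 1 or 2 and 3 without any 1 TAC library.

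Of 22 tested regulators of the PPAR, ERR and PGC-1 families 1 fell and 19 lay below 0, with a median of -0.36. It was Klf15, a factor that turns on amino acid and lipid use, from 54.1, 59.8 and 45.7 CPM to 25.2, 30.8 and 22.1 CPM (-1.03 ± 0.21, adjusted p = 0.00649, and 0.0569 without TAC replicate 3). The receptor gene Ppara read 123, 194 and 144 CPM in sham and 86.9, 104 and 93.3 CPM in TAC, with no overlap, and did not pass (-0.70 ± 0.20, 0.0595). The coactivator gene Ppargc1a read 136, 299 and 137 CPM in sham and 104, 159 and 73.4 CPM in TAC, and the groups overlapped (-0.76 ± 0.49, 0.513). Without filtered-air TAC replicate 2 the group had 2 calls and without diesel TAC replicate 3 it had 0. Among all genes tested 1.49% fell past the threshold and 50.1% lay above 0.

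Of 27 tested genes of ketone and branched-chain amino acid use 7 fell and 24 lay below 0, with a median of -0.51. Ivd, which acts on leucine, read 178, 229 and 215 CPM in sham and 109, 127 and 116 CPM in TAC (-0.82 ± 0.18, adjusted p = 0.0113), and Bckdha, a subunit of the gatekeeping dehydrogenase, 157, 161 and 158 CPM in sham and 85.5, 101 and 96.8 CPM in TAC (-0.75 ± 0.17, 0.0155). Ivd missed the threshold without TAC replicate 1 (0.0546) or 3 (0.061) and Bckdha on leaving out any 1 of 3 libraries (0.0723 at most, for TAC replicate 1). The count was 3 without sham replicate 1 or 3, 2 without TAC replicate 1 or 2 and 0 without TAC replicate 3. Of 34 tested genes of the citric acid cycle and pyruvate entry 4 fell and 32 lay below 0, with a median of -0.37. The 4 were Got1, Sdhc, Me3 and Suclg1, with falls of 0.57 to 0.95, which missed the threshold on leaving out any 1 of 5, 4, 5 and 9 libraries (0.156, 0.162, 0.177 and 0.198 at most). The count was 2 without filtered-air or diesel sham replicate 3, 1 without TAC replicate 1 or 3 and 0 without diesel sham replicate 1 or TAC replicate 2. Of 29 tested genes of glucose uptake and glycolysis 4 fell and 1 rose, with a median of -0.15. Pfkfb1, which sets the level of an activator of glycolysis, read 6.77, 5.35 and 9.23 CPM in sham and 1.16, 2.68 and 1.09 CPM in TAC (-2.13 ± 0.43, 0.00724, and 0.0571 without TAC replicate 3). The insulin-responsive transporter gene Slc2a4 read 360, 465 and 322 CPM in sham and 233, 218 and 192 CPM in TAC (-0.84 ± 0.18, 0.01), and missed the threshold on leaving out any 1 of 3 libraries (0.079 at most, for TAC replicate 3). Slc2a1, the basal glucose transporter, read 13.5, 13.5 and 12.1 CPM in sham and 11.4, 13.2 and 12.1 CPM in TAC (-0.10 ± 0.23, 0.9). That group had 3 calls without sham replicate 1 or 2 or TAC replicate 1. It had 2 when sham replicate 3 or TAC replicate 2 was dropped and 0 without TAC replicate 3.

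**Figure D4:**
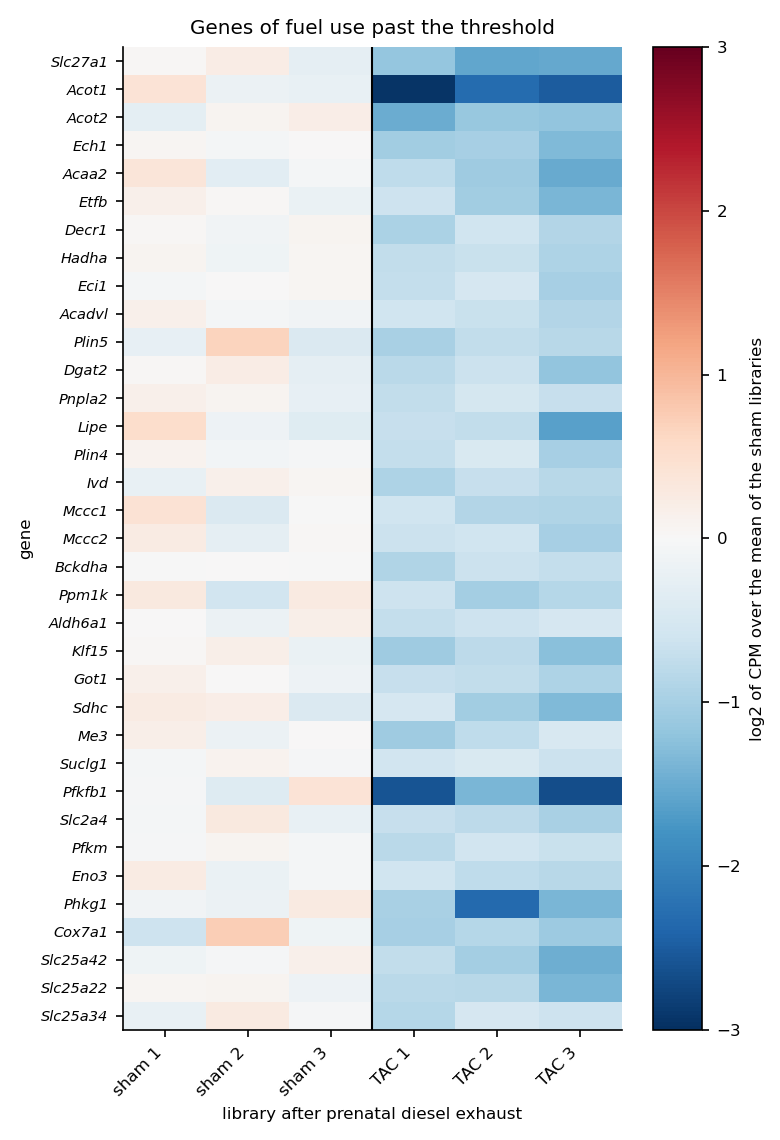
Log2 of CPM over the mean of the sham libraries (colour) for the 35 genes of fuel use that fell past the threshold (rows) in the 6 libraries after prenatal diesel exhaust (columns). Genes that rose, such as Scd1, are left out, so the 3 TAC columns are blue by choice of rows, deepest for Acot1 and Pfkfb1, and sham replicate 2 departs most from its group in Plin5 and Cox7a1.

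Of 37 tested nuclear subunits of complex I 0 passed and 34 lay below 0, with a median of -0.31. Of 44 of complexes II to V 2 fell, Cox7a1 and Sdhc, with 39 below 0 and a median of -0.33. Cox7a1, a heart and muscle form of cytochrome oxidase, read 351, 910 and 498 CPM in sham and 270, 298 and 255 CPM in TAC, with sham replicate 2 the highest (-1.10 ± 0.26, adjusted p = 0.0262). Both genes missed the threshold on leaving out any 1 of 4 libraries (0.135 and 0.162 at most, for TAC replicate 3). The count was 1 without diesel sham replicate 1 or 2 or TAC replicate 1, 0 without TAC replicate 2 or 3, 5 without filtered-air TAC replicate 1 and 4 without filtered-air TAC replicate 2. The 13 mitochondrially encoded genes of the list all lay below 0, with a median of -0.23 and 0 past the threshold. They summed to 130000, 95100 and 170000 CPM in sham and 111000, 111000 and 113000 CPM in TAC, and overlapped. The mitochondrially encoded share given for each library counted all genes of the mitochondrial chromosome, and not only these 13. Of 35 mitochondrial carriers 3 fell, with a median of -0.15, among them Slc25a42, a carrier of coenzyme A (-1.05 ± 0.25, 0.0208), which missed the threshold on leaving out any 1 of 3 libraries (0.144 at most, for TAC replicate 3). There was 1 carrier call without filtered-air sham or TAC replicate 3 or diesel TAC replicate 1 and 0 without diesel sham replicate 3 or TAC replicate 2 or 3.

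Housekeeping and stress groups had few or no calls by edgeR. Of 52 tested cytosolic ribosomal protein genes, 27 of ubiquitin ligases and proteasome, 30 of epigenetic enzymes, 19 imprinted genes, 21 immediate early genes, 12 of calcineurin and calcipressins and 12 of creatine and adenylate kinases, 0 passed, with medians of 0.13, -0.05, -0.11, 0.10, 0.18, 0.17 and -0.19. The calcipressin gene Rcan1, a target of calcineurin, read 40, 64 and 44.3 CPM in sham and 56.8, 128 and 199 CPM in TAC, with TAC replicate 1 inside the sham range (1.37 ± 0.37, adjusted p = 0.0731). The imprinted gene Mest read 5.36, 5.35 and 5.19 CPM in sham and 10.3, 9.48 and 11.5 CPM in TAC, apart in every library, and lay at the threshold (0.98 ± 0.27, 0.0506). Of 20 clock genes Dbp and Usp2 fell, by 0.77 ± 0.17 and 0.78 ± 0.19, with a median of -0.27. They missed the threshold on leaving out any 1 of 3 and 4 libraries (0.0599 and 0.147 at most), with 1 call left when sham replicate 1 or 2 or TAC replicate 2 was dropped and 0 without TAC replicate 1 or 3. Of 28 antioxidant and xenobiotic genes 2 rose and 2 fell, with a median of 0.11, led by the secreted glutathione peroxidase gene Gpx3, from 50.4, 55.3 and 52.4 CPM to 78.3, 115 and 107 CPM (0.92 ± 0.19, 0.00666, and 0.0522 without TAC replicate 2). Tiparp, a target of the aryl hydrocarbon receptor, rose by 0.96 ± 0.24 and missed the threshold on leaving out any 1 of 5 libraries (0.14 at most, for sham replicate 1). The number was 2 without filtered-air sham replicate 2 or 3 or diesel sham replicate 3, 1 without diesel sham replicate 1 or TAC replicate 1 or 3 and 0 without TAC replicate 2. Of 26 genes of the unfolded protein and heat shock response the chaperone gene Hspa5 fell by 0.63 ± 0.17 (0.0488), and missed the threshold on leaving out any 1 of 9 libraries (0.212 at most, for TAC replicate 2). The group had 2 calls without filtered-air TAC replicate 1 or 2.

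The same operation after prenatal filtered air gave 113 calls (0.829% of genes tested), of which 95 were also called after diesel exhaust, each in the same direction. These 95 are 84.1% of the filtered-air calls and 21.5% of the diesel calls. The difference between both responses was tested as the exposure by surgery interaction, where 0 genes passed by edgeR (0%), and 327 genes, 2.4% of those tested, had an unadjusted p under 0.05. By voom 0 passed, and by DESeq2 1 did. Of the 442 genes called after diesel exhaust, 51 had an unadjusted interaction p under 0.05. These genes were chosen by their diesel difference, which is also a part of the interaction. That choice favours small interaction p-values, so the 51 are no measure of dependence on exposure. By edgeR and voom, a gene called after diesel exhaust alone is therefore not shown to respond differently from filtered air, and by DESeq2 the gene that passed was Ptprf.

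The smallest interaction p belonged to Ptprf, a receptor phosphatase, which rose after diesel exhaust from 3.19, 5.52 and 4.76 CPM to 11.5, 16.1 and 11.7 CPM (1.55 ± 0.31, adjusted p = 0.00587, and 0.0511 without TAC replicate 2). Its estimate after filtered air was -0.78 ± 0.31, and the interaction was 2.33 ± 0.44 (unadjusted p = 2.47e-05, adjusted p = 0.336 by edgeR and 0.0117 by DESeq2). Pamr1, a secreted protein first linked to muscle regeneration, was at 1.02, 1.17 and 0.721 CPM in diesel sham and at 17.4, 17.2 and 15.5 CPM in diesel TAC, a narrow spread in both groups. It rose by 4.09 ± 0.40 after diesel exhaust (adjusted p = 4.17e-06) and by 1.55 ± 0.35 after filtered air, with an interaction of 2.54 ± 0.54 (unadjusted p = 0.000108, adjusted p = 0.739). Pim3, a survival kinase, fell from 120, 117 and 101 CPM to 44.7, 35.4 and 32.9 CPM after diesel exhaust (-1.58 ± 0.18, 2.18e-05), with an interaction of -1.0 ± 0.25 (unadjusted p = 0.000731). Acot1 had an interaction of -1.74 ± 0.54 (unadjusted p = 0.00379). For Nppb, Acta1 and Ankrd1 the interactions were 0.07 ± 0.37, 0.07 ± 0.67 and 0.43 ± 0.35. Litter and sequencing run could differ between the exposures, and their part was not tested.

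**Figure D5:**
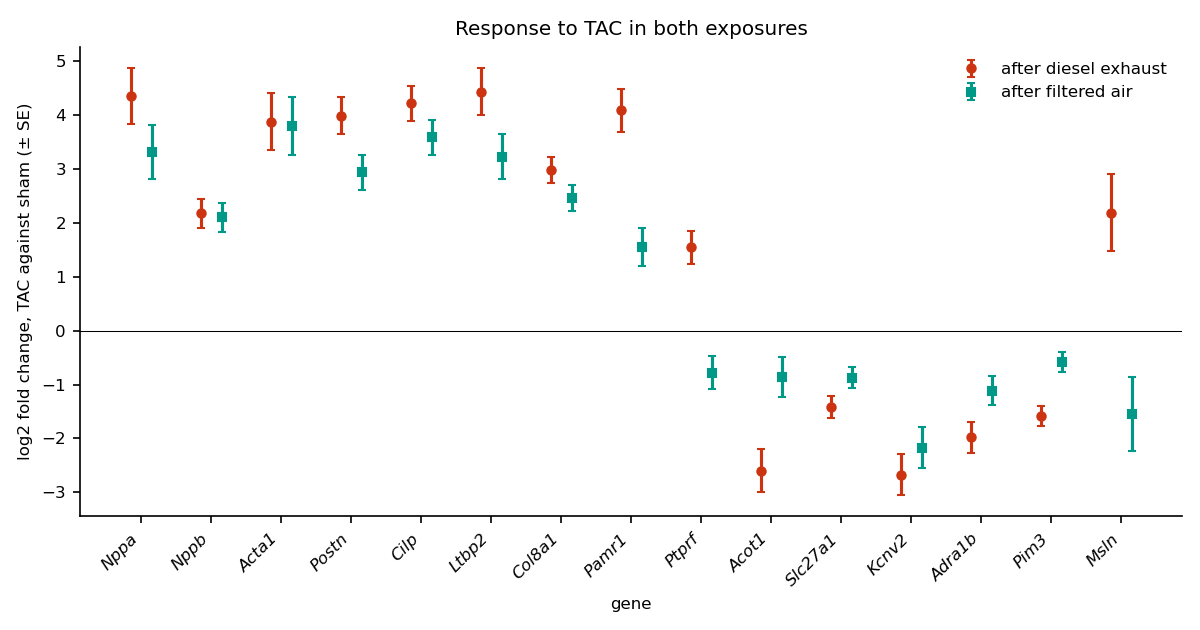
Log2 fold change of TAC over sham with its SE (vertical axis) for 15 genes (horizontal axis) after prenatal diesel exhaust (circles) and after filtered air (squares), from the fit of all 12 libraries. Nppb and Acta1 are close in both exposures, Ptprf and Msln have opposite signs, and no interaction of these genes passed the threshold by edgeR. Msln passed in neither exposure.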

How the data were processed

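Gene counts were available for 12 hearts, 3 in each of 4 groups, and the 6 hearts of the diesel groups make up the comparison. The authors deposited whole-number read counts for 27179 genes. Per the submitters' processing notes, cutadapt 1.6, Subread 1.4.2 and featureCounts were used with mm10. Strand setting, annotation release and the treatment of reads with several matches: not given in the sources used here. For that reason, genes that overlap or share sequence are uncertain. Each library had 5534685 to 13265816 counts in the diesel groups, where 3 counts equal 0.226 to 0.542 CPM.

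Gene IDs were matched to symbols through RefSeq (25275) and GENCODE (18), and 1886 without a symbol held 4.19% of counts. Genes were filtered with filterByExpr at a count minimum of 10, scaled by TMM, and fitted with edgeR 4.0.16 (robust quasi-likelihood, 8 residual degrees of freedom, R 4.3.3) to all 12 libraries as 4 group means. P-values were adjusted by Benjamini-Hochberg over 13626 genes, with a threshold of 0.05. Alternatives were limma 3.58.1 (voom), DESeq2 1.42.0, relative log expression factors, other filters, the 6 diesel libraries alone and leaving out each library. The scripts were tested on simulated counts.

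Named genes were the 15 greatest called rises and falls without overlap at a mean of at least 1 CPM, hallmark genes, called members of the lists (or, in lists with fewer than 2, the 2 with the smallest p), cell type markers and the 5 smallest interaction p-values. The members and lists were chosen with earlier results of these data known. A few genes are not reported here.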

Additional observations from a re-analysis of the deposited data

How the results depend on the processing

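The diesel comparison gave 360 to 638 genes under the other tools, scalings and filters, of which the highest is DESeq2 and the lowest the quasi-likelihood form that is not robust. Leaving out 1 library gave 188 to 530. The share of higher genes, 54.1%, was 70.2% without diesel TAC replicate 3 (132 higher, 56 lower) and 63.6% without diesel TAC replicate 2 (133 higher, 76 lower). The filtered-air count of 113 was 247 with no low-count filter, 74 by voom and 239 by DESeq2, and 39 to 143 without 1 library. For the interaction, 1 gene passed with no low-count filter (Capn11) and 1 by DESeq2 (Ptprf), and 0 in each fit without 1 library. The causes were not tested. Of 254 named genes 193 were called, of which 162 were called by voom, 193 by DESeq2 and 78 in all 12 fits without 1 library. The estimate changed sign in these genes, which did not pass. Without 1 library Cpt1b ran from -0.43 to 0.07 (positive without diesel sham replicate 1), Gata4 from -0.27 to 0.03 (without diesel sham replicate 2), ND4L from -1.01 to 0.07 (without diesel sham replicate 3), Pck1 from -0.04 (without diesel TAC replicate 2) to 5.02, and Cd1d1 from -0.99 to 1.00 (without diesel sham replicate 3, and 0.06 without diesel TAC replicate 1). No paired analysis was possible because the replicate numbers were given in accession order and mark no shared litter, batch or day. The mitochondrially encoded list has no value where those genes were left out. With 3 hearts a group and 5534685 to 13265816 counts, genes near 3 counts a library are not resolved.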

Other observations

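Of the 442 genes called after diesel exhaust, 249 were on no list and under no naming rule, 123 higher and 126 lower after TAC. The genes below were chosen after their values were seen, from the 12 with the smallest p in each direction, and all 24 passed in each fit without 1 library. Svep1, a large adhesion protein, went from 31.1, 27.1 and 30 CPM to 125, 151 and 208 CPM (2.45 ± 0.23, edgeR adjusted p = 4.04e-06). Mgp, matrix Gla protein, an inhibitor of calcification, went from 104, 66.2 and 78.3 CPM to 293, 219 and 229 CPM (1.58 ± 0.22, 0.000227). Serpinf1, which encodes the anti-angiogenic factor PEDF, rose by 1.89 ± 0.25 and Sulf1, which edits heparan sulfate, by 1.35 ± 0.23. In these genes no TAC heart overlapped a sham heart, which held for 437 of the 442 genes called.

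Among the lower genes, Mylk4, a myosin light chain kinase family member, went from 171, 156 and 177 CPM to 60, 69.3 and 48 CPM (-1.51 ± 0.23, edgeR adjusted p = 0.000423). Pink1, a kinase that marks damaged mitochondria, went from 329, 447 and 380 CPM to 159, 212 and 188 CPM (-1.05 ± 0.19, 0.00258). Slc4a3, an anion exchanger of heart muscle, went from 195, 278 and 201 CPM to 104, 111 and 112 CPM (-1.05 ± 0.19, 0.00258), and the splicing regulator Rbfox1 fell by 1.37 ± 0.24. The groups did not overlap in these genes either.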
